A study of Caenorhabditis elegans with 51 samples.

Results

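The input small RNA of young adult Caenorhabditis elegans was described here across every gene row of the small RNA immunoprecipitation (sRIP) table, with no contrast between conditions. All 20938 gene rows were ranked by their mean level over both input libraries, which are 2 of the 51 samples in the series and 2 of the 6 in that table. The animals were of strain CSS342, which carries Cer3(red20), an allele of the retrotransposon Cer3 with an inserted piece of oma-1. The oma-1 gene encodes an oocyte maturation protein. The strain also carries SF-HRDE-1 and, as a second tagged Argonaute, c-myc-CSR-1. Total RNA was taken from whole young adults, and the input was sequenced without precipitation. The labels name no wild-type or untagged input in the table, so a level described here is that of this strain. Levels are RPKM, which scale reads to the length of the gene model and the size of the library.

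Endogenous small interfering RNAs of C. elegans are mostly made by RNA-dependent RNA polymerases that copy a target transcript into short antisense RNA. The germline holds several such pools. CSR-1 binds small RNAs against germline-expressed genes, HRDE-1 and related worm-specific Argonautes bind small RNAs against silenced genes, and the ERGO-1 pathway acts on a small set of recent or duplicated genes in oocytes and embryos. Libraries made without regard to the phosphates at the 5′ end, as these were per the labels, also hold the triphosphorylated products of the polymerases. The read lengths and the strand counted were not given in the sources used here, so a level cannot be assigned to one of these pools. In whole animals, a lower share of germline tissue and less small RNA per germ cell cannot be told apart.

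The deduced library totals were 2728020 reads for input replicate 1 and 2104162 reads for input replicate 2. Reads on gene rows summed to 49.9% of the first total and 51.8% of the second. As 610 symbols have several rows, a read may count on more than 1 row, so these need not be shares of distinct reads. Over the 9716 rows with at least 10 reads in the pair, the chi-square per degree of freedom was 0.944. That is a difference of less than sampling noise, and the pair was counted as 1 sample whose means carry no SD. Over the 5370 rows with at least 100 reads it was 0.974. The rows with the most reads, where a given difference shows more readily, were an exception. Over the 406 rows with at least 1000 reads in the pair, the chi-square per degree of freedom was 1.40 (chi-square p = 1.54e-07). Replicate 2 was the higher library in 19 of the 20 highest rows, with a median log2 ratio of 0.14, and in 86 of the 100 highest. These counts include a general offset, as the summed RPKM was 411252 in replicate 2 and 394488 in replicate 1. Among rows of 10 to 100 RPKM, replicate 2 was the higher in 3463 of 5946, with a median log2 ratio of 0.040. Across the 12600 rows above 0 in both libraries, the rank correlation of the 2 libraries was 0.981 (Spearman, across genes, which are not independent replicates).

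A few rows lay far from the rest of the pair. Those with the highest chi-square are named here because of that value. Y73F8A.26 had 157 RPKM in replicate 1 and 121 in replicate 2, from 839 and 498 reads. The row of moe-3, a CCCH zinc finger gene of oocytes, had 27 reads in replicate 1 and 1 read in replicate 2. T01D3.7 went the other way, with 1 read in replicate 1 and 15 reads in replicate 2. Rows at low levels rest on few reads, and the pair spread widely there.

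**Figure D1:**
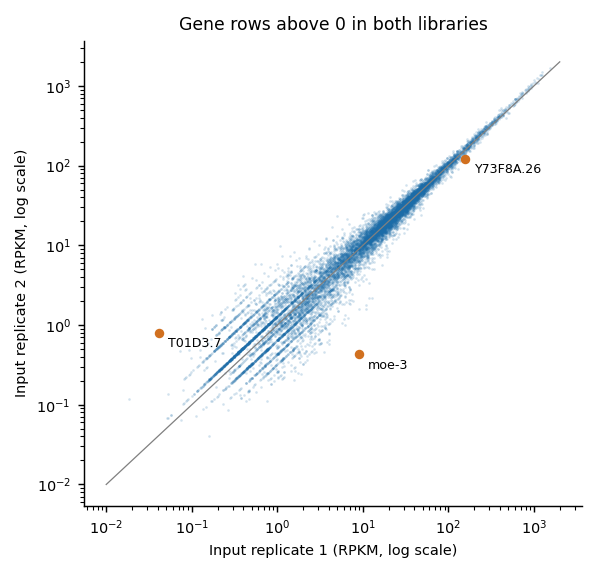
Level of each gene row in input replicate 1 (horizontal axis, RPKM, log scale) against input replicate 2 (vertical axis, RPKM, log scale), for the 12600 rows above 0 in both libraries. Points close in on the line of equality as the level rises, and the 3 rows in orange, Y73F8A.26, moe-3 and T01D3.7, are those with the highest chi-square of the pair.

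Small RNA was spread over most gene rows, but very unevenly. Of the 20938 rows, 15021 (71.7%) had at least 1 read in the pair and 5917 were at 0 in both libraries. A further 4257 rows had a mean above 0 and under 1 RPKM, and together they held 0.447% of the summed RPKM. The middle of the range carried much of the total: 5946 rows between 10 and 100 RPKM held 46.9%. The 769 rows between 100 and 1000 RPKM held 45.2%, and 12 rows at 1000 RPKM or more held 3.61%. The median row had 1.15 RPKM, the upper quartile began at 17.4 RPKM and the highest 1% of rows began at 274 RPKM.

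No single gene dominated. The highest row held 0.389% of the summed RPKM in replicate 1 and 0.410% in replicate 2. Over the mean of both, the highest 10 rows held 3.09% and the highest 100 held 17.2%. By library, the highest 100 held 16.9% in replicate 1 and 17.6% in replicate 2. The 833 highest rows held 50% of the summed RPKM and the 5099 highest held 90%. Per length, small RNA was therefore concentrated in a small minority of rows but not in a handful. By reads, where a long gene counts for more, the highest 100 rows held 13.2% and 1081 rows were needed for 50%. A row at 0 is limited by depth: 3 reads over the pair correspond to 0.621 RPKM for a model of 1000 bases, for counting error only. Reads were not marked with molecular identifiers, so they need not be independent molecules. Of the rows above 0, 3381 rested on 1 to 3 reads.

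**Figure D2:**
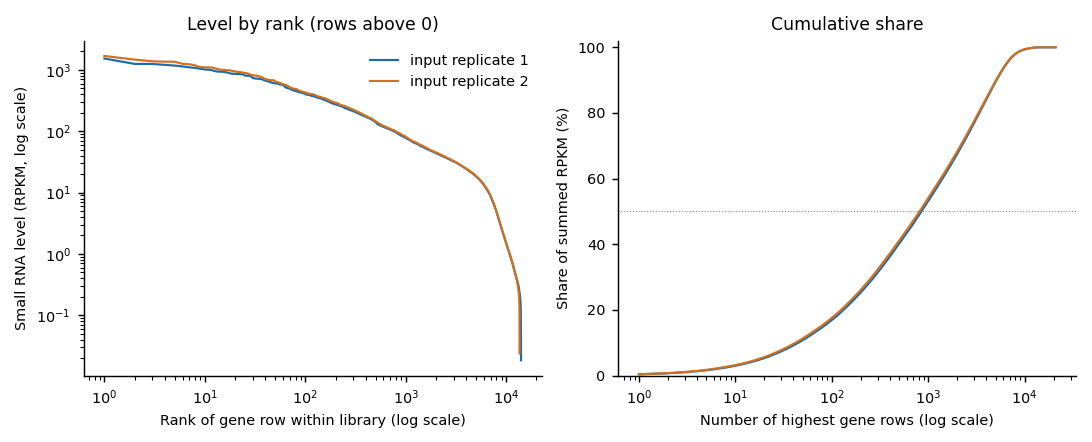
Left, level of gene rows (RPKM, log scale) against their rank within each input library (log scale), for rows above 0. Right, cumulative share of the summed RPKM (%) held by the highest rows (number of rows, log scale), with a dotted line at 50%, which the mean of both libraries reaches at 833 rows.

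The row with the highest mean was F02C12.3, a protein-coding gene on chromosome X with no other name in the files, at 1533 RPKM in replicate 1 and 1687 RPKM in replicate 2. Its exons overlap an annotated piRNA gene and a noncoding RNA gene on the other strand, and without the strand counted these cannot be told apart. F37D6.3 followed with 1249 and 1471 RPKM. C44B11.6, a target of the ERGO-1 pathway, had 1252 and 1357 RPKM. B0250.8 had 1207 and 1380 RPKM, and T26E3.7 had 1176 and 1364 RPKM. These are small, sparsely characterised genes, and both libraries placed each of them above 1000 RPKM.

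The other rows above 1000 RPKM were F55A3.6, W03H9.3, K08F11.1, F59C12.4, C24H10.4, bath-45 and rnh-1.3. The row W03H9.3 was not matched to the annotation. The gene bath-45, which encodes a protein with BTB and MATH domains and is a known target of germline silencing, had 1016 RPKM in replicate 1 and 1110 RPKM in replicate 2. The gene rnh-1.3, for an RNase H, had 979 and 1100 RPKM. Ranks 13 to 20 were held by qdpr-1, bath-20, K02E2.6, hmg-11, Y76B12C.8, Y71A12B.10, M117.3 and Y110A2AL.10, with means from 990 down to 898 RPKM. Among these, qdpr-1 encodes quinoid dihydropteridine reductase, hmg-11 a high mobility group protein, and K02E2.6 is a target of the ERGO-1 pathway. The linker histone gene his-24 came next, at 843 and 950 RPKM.

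**Figure D3:**
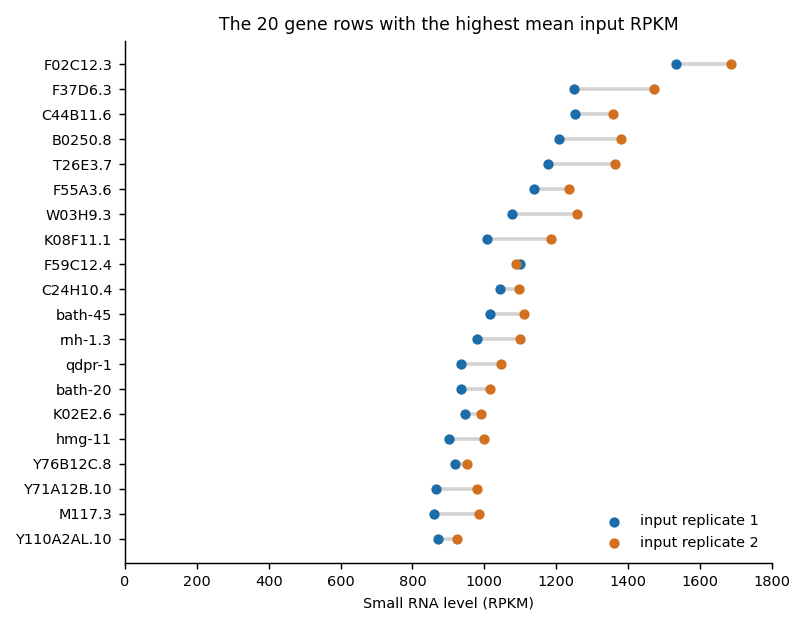
Level (RPKM) of the 20 gene rows with the highest mean input level, with input replicate 1 in blue and input replicate 2 in orange. The means run from 1610 RPKM for F02C12.3 to 898 RPKM for Y110A2AL.10, and replicate 2 is the higher library in 19 of the 20 rows.

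The highest rows were short, and most were listed by a sequence name. Deduced model lengths of the 20 highest rows had a median of 435 bases, from 204 to 1467, against a median of 1175 bases over the 17095 rows with a length. The 20 highest rows rested on 1051 to 7185 reads each in the pair, so their place does not rest on few reads. Rows that the deposited table lists by a sequence name made up 79 of the 100 highest, against 61.4% of all rows. The current annotation gives a gene name to some of these, such as saeg-2 for T23G5.6. When these rows were divided by length into 4 equal classes, the shortest class, up to 779 bases, held 58 of the 100 highest rows, and the longest class, from 1799 bases, held 4. At 10 RPKM or more the order at the ends was the reverse, with 1623 of 4276 rows in the shortest class and 2020 of 4272 rows in the longest. A row length enters the RPKM itself, so part of this order cannot be told apart from the scale.

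Annotated pseudogenes made up a larger share of the highest rows than of all rows, while most of them had little small RNA. They were 3.48% of rows, 14 of the 100 highest rows and 6.30% of the summed RPKM. Their median was 0.43 RPKM, below the 1.15 RPKM of all rows, and 275 of 728 were at 0. Y46H3C.6 on chromosome V was the highest, at 807 and 841 RPKM. Y37H9A.2 on chromosome I had 722 and 833 RPKM, and F37H8.2 on chromosome II had 728 and 816 RPKM. These 3 were named because they ranked highest among pseudogenes. Protein-coding rows had a median of 1.22 RPKM. They made up 82 of the 100 highest rows, below their 93.4% of all rows.

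The highest medians of all families and lists described were those of known silencing targets. The 13 targets of the ERGO-1 pathway were listed from general knowledge of that pathway, with earlier results of these data known. Their place among the lists is therefore description only. They had a median of 394 RPKM, and 11 of them reached 100 RPKM, against 781 of all 20938 rows. All 13 were above 0, from 58.7 RPKM for F52D2.6 to 1304 RPKM for C44B11.6. K02E2.6 had 945 RPKM in replicate 1 and 991 RPKM in replicate 2. The annotated pseudogene E01G4.7 had 617 and 634 RPKM. With 0.0621% of the rows, the list held 1.41% of the summed RPKM. That share fell to 0.677% by reads, because these models are short.

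A list of 5 genes known as targets of germline silencing was chosen in the same way. Its median was 294 RPKM, and it held 0.574% of the summed RPKM. F15D4.5 had 706 RPKM in replicate 1 and 788 RPKM in replicate 2. C38D9.2 had 275 and 314 RPKM. The gene sosi-1, listed in the files as C41D11.6, had 113 and 120 RPKM, and eri-6 had 84.6 and 96.9 RPKM. The highest member was bath-45, at 1063 RPKM on average, and all 5 lay above the upper quartile of all rows.

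Genes with BTB and MATH domains (bath) and genes with a MATH domain alone (math) encode substrate adaptors and relatives of them, in a family expanded in nematodes. Among its 90 rows, 74 were above 0, the median was 3.14 RPKM, and 12 rows reached 100 RPKM. Over all 20938 rows, 15021 were above 0 and 781 reached 100 RPKM. The level was carried by the bath rows, with a median of 37.3 RPKM over 39 rows, against 0.47 RPKM over 51 math rows. Apart from bath-45, the highest was bath-20, at 934 and 1016 RPKM. Its neighbour bath-24 had 451 and 475 RPKM. The family held 1.36% of the summed RPKM with 0.430% of the rows.

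F-box genes encode substrate adaptors of ubiquitin ligases and are also expanded in nematodes. They held the highest share of any family described, at 2.79% of the summed RPKM with 1.71% of the rows. By reads their share was 2.17%. Of 357 rows, 300 were above 0 and 35 reached 100 RPKM, with a median of 2.37 RPKM. Over all 20938 rows, 15021 were above 0 and 781 reached 100 RPKM, with a median of 1.15 RPKM. At 10 RPKM or more were 34.5% of F-box rows, near the 32.1% of all rows. The highest was fbxb-14, at 677 RPKM in replicate 1 and 720 RPKM in replicate 2. The gene fbxc-43, listed as C16A11.9, had 649 and 639 RPKM. Levels within the family ran from 0 to 698 RPKM, so that the median says little about its high members. The fbxb rows had a median of 4.93 RPKM with 105 of 111 above 0, and the fbxa rows a median of 1.37 RPKM with 148 of 194 above 0.

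Lists of genes of basic cell functions had medians in a band from 31.4 to 33.9 RPKM, while their rows ranged more widely. All 35 proteasome rows were above 0, with a median of 33.9 RPKM and a range from 11.3 to 92.7 RPKM. The highest was rpn-11, for the deubiquitinating subunit of the proteasome lid, at 92.7 RPKM on average, and the next was pas-4, for a core subunit, at 86.2 and 82.1 RPKM. All 29 nuclear pore rows were above 0, with a median of 32.3 RPKM, npp-20 highest at 58.3 and 59.4 RPKM and npp-1 next at 55.9 RPKM on average. The 34 rows of splicing factors and small nuclear ribonucleoproteins had a median of 31.4 RPKM, with the SR proteins rsp-3 and rsp-4 at 109 and 106 RPKM on average. The 8 rows with an mcm symbol had a median of 32.4 RPKM. They are the 6 subunits of the MCM helicase, which unwinds DNA in replication, with mcm-10 and mcm-3AP. Their levels ran from 10.2 RPKM for mcm-10, listed as Y47D3A.28, upward, and mcm-7 and mcm-2 were highest at 59.6 and 54.2 RPKM on average. In each of these lists no row was at 0, where 28.3% of all rows were.

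Ribosomal protein genes had medians somewhat below that band. Their rows ran from 3.10 to 105 RPKM for cytosolic and from 5.07 to 170 RPKM for mitochondrial ribosomal proteins. All 83 rows of cytosolic ribosomal proteins were above 0, with a median of 26.3 RPKM, and rpl-41.2, listed as F54D7.7, was highest at 97.6 and 112 RPKM. The next was rpl-43 at 86.1 and 91.8 RPKM. All 69 rows of mitochondrial ribosomal proteins were above 0, with a median of 29.7 RPKM, and mrpl-36, listed as K11H3.6, was highest at 159 and 181 RPKM. The next, mrpl-35, listed as M01F1.6, had 79.1 RPKM on average. The heat shock and DnaJ rows had a median of 20.1 RPKM with 53 of 55 above 0. Their highest members were dnj-24, a DnaJ protein, at 185 and 195 RPKM, and hsp-90, listed as daf-21, at 80.6 and 93.4 RPKM.

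The meiotic and oogenic lists had medians in the band of 31.4 to 33.9 RPKM, and the P granule list a higher one, with some members well below. The 35 rows of meiotic chromosome genes were all above 0 with a median of 31.7 RPKM. The chromosome axis gene htp-1 was highest at 166 and 186 RPKM, and chk-2, a kinase of meiotic prophase, had 89.3 and 101 RPKM. Genes of oogenesis and maternal RNA regulation had a median of 31.6 RPKM with 37 of 38 rows above 0, and the row of perm-2, listed as C44B12.1, at 0. Among them car-1, an RNA-binding protein of germline granules, had 101 and 106 RPKM, and puf-11, a PUF family RNA-binding protein, had 99.5 and 97.8 RPKM. P granule genes had a median of 46.9 RPKM over 17 rows. Their highest row, at 175 RPKM on average, was that of prg-1, which is also in the Argonaute list below. Of the Vasa-like helicases, glh-4 had 133 RPKM in both libraries and glh-1 had 105 RPKM on average. At the low end of this list were meg-1 at 2.78 RPKM and meg-2 at 1.73 RPKM on average, both genes of embryonic P granule assembly. Their relatives meg-3, listed as gei-12, and meg-4, listed as C36C9.1, had 9.31 and 9.62 RPKM on average.

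The genes of the small RNA pathways were themselves covered by small RNA to very different degrees. Argonaute genes had 23 rows, all above 0, with a median of 13.8 RPKM and a range from 0.13 to 175 RPKM. The PIWI gene prg-1 was highest, at 173 and 177 RPKM, and wago-4, listed as F58G1.1, had 140 and 141 RPKM. The tagged Argonautes of the strain were close to each other: hrde-1, listed as C16C10.3, had 113 and 122 RPKM, and csr-1 had 117 RPKM on average, a gap smaller than that between the libraries. The Argonautes of spermatogenesis, alg-3 and alg-4, were low at 0.31 and 0.40 RPKM on average, and wago-10 was lowest at 0.13 RPKM. These low rows rest on 6 reads or fewer in the pair and are not ordered among themselves. The somatic nuclear Argonaute nrde-3 had 4.58 and 4.84 RPKM, and ergo-1 had 14.4 and 14.8 RPKM.

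Small RNA biogenesis factors had a median of 30.6 RPKM over 36 rows, all above 0. The highest was rde-11, an RNA interference factor listed as B0564.11, at 280 and 285 RPKM. The gene parn-1, for the nuclease that trims piRNA ends, had 193 and 214 RPKM. The double-stranded RNA channel gene sid-1 had 165 and 180 RPKM. The polymerase genes differed less: ego-1 had 41.9 RPKM, rrf-1 had 35.6 RPKM, rrf-2 had 30.4 RPKM and rrf-3 had 23.3 RPKM on average. The Dicer gene dcr-1 had 15.9 and 18.6 RPKM.

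The gene whose fragment sits in Cer3 was not among the high rows. The row of oma-1 had 33.1 RPKM in replicate 1 and 30.3 RPKM in replicate 2, which placed it at rank 3090. Reads from the oma-1 gene and from its fragment in Cer3 cannot be told apart in a row of the gene. Its paralog oma-2 had 25.9 and 29.5 RPKM. Other strains of the series carry pieces of other genes in Cer3, which this strain does not. Among the germline ones, him-8 had 42.1 and 36.7 RPKM, mex-5 had 31.9 and 32.7 RPKM, and zim-3 had 26.9 and 23.9 RPKM. The meiotic recombination gene him-5, listed as D1086.4, had 20.8 and 13.8 RPKM. The 2 rows of rpl-1 had 13.4 and 15.8 RPKM in replicate 1 and 26.4 and 23.9 RPKM in replicate 2, from at most 35 reads in a library. The lowest was meg-2, at 1.34 and 2.12 RPKM. Of the somatic ones, ida-1, a gene of dense core vesicles, had 15.1 RPKM, ttm-2 had 1.00 RPKM and the muscle gene unc-22 had 0.14 RPKM on average. The row of cah-4, a carbonic anhydrase gene, was at 0 in both libraries. Both sets thus overlapped, with ida-1 above meg-2.

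Chemoreceptors stood at the other end. These G protein-coupled receptors of sensory neurons are among the most numerous gene families of the worm, with 1342 rows or 6.41% of the table. Only 384 rows (28.6%) had a read in the pair, against 71.7% of all rows, and 10 rows reached 10 RPKM. The family held 0.284% of the summed RPKM. Single members stood out: srt-43 had 217 RPKM in replicate 1 and 229 RPKM in replicate 2, and sra-35 had 164 and 182 RPKM. The row of srt-43 alone made up 19.5% of the sum of the family.

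Neuropeptide genes, which include insulin-like and FMRFamide-like peptides, had a median of 0 with 51 of 143 rows above 0. Their high members were higher than those of the chemoreceptors. The genes nlp-62, listed as F33D11.8, and nlp-81, listed as Y67D8B.4, had 392 and 337 RPKM in replicate 1 and 448 and 368 RPKM in replicate 2. Cuticle collagens, the structural proteins of the worm's cuticle, also had a median of 0, with 74 of 163 rows above 0. The highest were col-71 at 303 and 295 RPKM and col-111 at 159 and 164 RPKM. C-type lectins, secreted proteins often linked to immunity, had a median of 0.12 RPKM over the mean of the pair and of 0 in each library alone, with 133 of 261 rows above 0, and the highest were clec-238 at 163 and 170 RPKM and clec-90 at 107 and 114 RPKM. In each of these families a few rows at 100 RPKM or more stood over a majority of rows at or near 0. Such high rows were 6 of 143 for neuropeptides, 2 of 163 for collagens and 2 of 261 for lectins. Over all rows they were 781 of 20938, a share near that of the neuropeptides and above those of the other 2 families. Above 0 were 71.7% of all rows.

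Cytochrome P450 genes, which encode enzymes of lipid and xenobiotic metabolism, had a median of 0.20 RPKM with 48 of 76 rows (63.2%) above 0. Over all rows the median was 1.15 RPKM and 71.7% were above 0. They lacked the high members of the families above: the highest, cyp-31A2, had 23.4 and 23.8 RPKM, followed by cyp-31A3 at 21.2 and 24.6 RPKM. UDP-glucuronosyltransferases, enzymes of conjugation, had a median of 0.33 RPKM (0.53 in replicate 1 and 0.30 in replicate 2), and ugt-31 alone, at 198 RPKM on average, made up 53.5% of their sum. The next was ugt-64 at 75.1 RPKM on average. Cuticlins had a median of 0.30 RPKM, and their highest rows were cutl-10, listed as Y53H1B.1, at 22.5 RPKM and cutl-15, listed as T21B10.6, at 21.0 RPKM on average. Nuclear hormone receptors had a median of 0.49 RPKM. Above 0 were 210 of 302 of their rows (69.5%), near the share of all rows. The highest were nhr-15 at 431 and 496 RPKM and nhr-88 at 396 and 440 RPKM. Homeobox genes, which encode developmental transcription factors, had a median of 0.46 RPKM. Among them ceh-20, a PBX class gene, had 393 and 404 RPKM, and ceh-43, the Distal-less gene, had 108 and 105 RPKM.

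**Figure D4:**
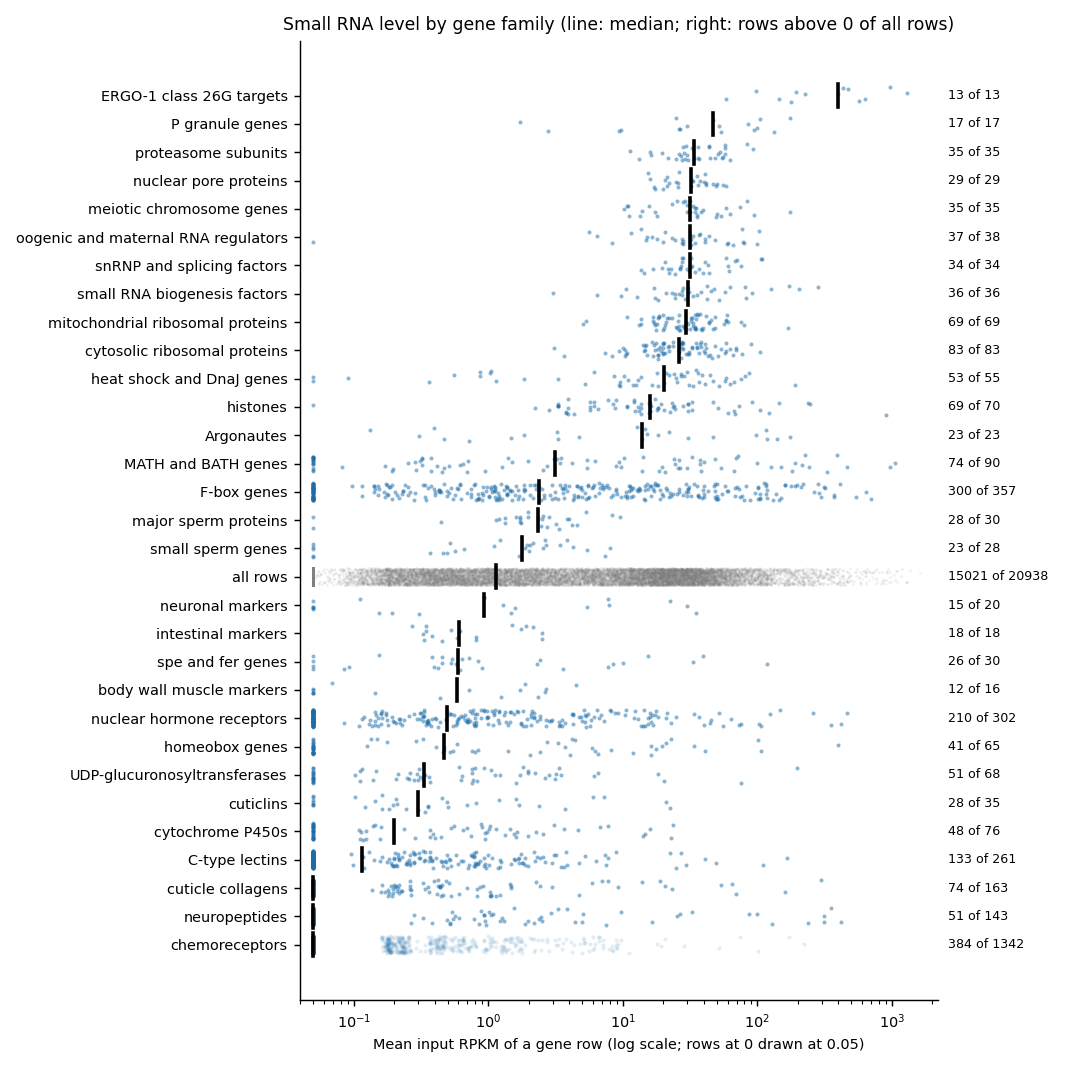
Mean input level of each gene row (RPKM, log scale, rows at 0 drawn at 0.05) in the families and lists with 10 rows or more, ordered by median (black line), with the number of rows above 0 at the right. Targets of the ERGO-1 pathway lie highest at a median of 394 RPKM, the proteasome, nuclear pore, splicing, meiotic and oogenic lists have medians between 31.4 and 33.9 RPKM, and chemoreceptors, neuropeptides and cuticle collagens have medians of 0.

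In these whole animals, markers of somatic tissues had medians below the 1.15 RPKM of all rows, of which 71.7% were above 0. The neuronal median was the closest to that of all rows. All 18 rows of intestinal markers were above 0, but their highest, the protease gene cpr-6, had 2.03 and 3.01 RPKM, the lysozyme gene lys-4 had 3.03 and 1.96 RPKM, and the median was 0.60 RPKM. Body wall muscle markers had a median of 0.58 RPKM with 12 of 16 rows above 0. That median was 0.91 RPKM in replicate 1, 0.31 RPKM in replicate 2 and 0.11 RPKM with 1 row per gene symbol, and the highest row, of the tropomyosin gene lev-11, had 4.65 and 4.35 RPKM. Of 7 pharyngeal marker rows, 5 were above 0 and none reached 1 RPKM on average. The transcription factor gene pha-4 was highest at 0.48 and 1.26 RPKM, tni-4 had 0.22, ceh-22 had 0.12, myo-1 (listed as let-75) had 0.093 and myo-2 had 0.029 RPKM on average, and marg-1 (listed as F47B7.7) and tnc-2 were at 0. Neuronal markers had a median of 0.93 RPKM (1.09 in replicate 1 and 0.57 in replicate 2) with 15 of 20 rows above 0. Here unc-119 had 35.4 and 34.7 RPKM and the synaptobrevin gene snb-1 had 29.1 and 30.6 RPKM, near the medians of the meiotic and oogenic lists. In contrast, snt-1, mec-4, unc-47 and tph-1 were at 0.

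Yolk and sperm genes, whose transcripts are abundant in the intestine of adults and in spermatogenesis, had few high rows. No vitellogenin, major sperm protein or small sperm row reached 10 RPKM, against 32.1% of all rows. The median of all rows was 1.15 RPKM. Major sperm proteins and small sperm genes had higher medians, vitellogenins one close to it at 1.04 RPKM, and the spe and fer genes a lower one. The 8 vitellogenin rows lay between 0.53 and 1.74 RPKM, with vit-5 highest at 1.43 and 2.05 RPKM. By gene, vit-3 had 1.44, vit-1 had 1.41, vit-4 had 1.27 and vit-6 had 0.81 RPKM on average, and the highest row of vit-2 had 0.58 RPKM. Major sperm protein rows had a median of 2.35 RPKM (2.80 in replicate 1 and 1.45 in replicate 2) with 28 of 30 above 0, and the highest, msp-77, had 9.21 and 9.77 RPKM. The next, msp-36, had 8.11 and 8.41 RPKM. The 28 rows of small sperm genes had a median of 1.78 RPKM and a highest mean of 8.08 RPKM for nspd-1, followed by ssp-16 at 12.7 and 2.19 RPKM. The spe and fer genes, required for sperm formation and function, had a median of 0.60 RPKM with 26 of 30 rows above 0. In that list spe-47, listed as Y23H5A.4, had 109 and 128 RPKM, and spe-41 had 38.7 and 40.1 RPKM. Major sperm protein genes are near-identical copies, and how reads that map to several places were counted was not given.

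Genes with a his symbol, which cover the core histones and the linker histone his-24, had a median of 15.8 RPKM with 69 of 70 rows above 0. The sum rested on few rows: his-24, for a linker histone, made up 30.1% of it at 897 RPKM on average, and his-37, for histone H4, had 240 and 255 RPKM. The linker histone genes hil-8 and hil-3, at 869 and 432 RPKM on average, have another symbol and are not in this family or its sum. Copies could not be separated here. Among genes with at least 10 reads in the pair, 46 groups of 97 genes had the same values in both libraries, and 10 of these groups, with 23 genes, were histones. None of the 200 highest rows was in such a group.

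Level differed by chromosome. Protein-coding rows on chromosome III had a median of 11.5 RPKM and those on chromosome I a median of 9.23 RPKM. Chromosome II followed with 1.80 RPKM and chromosome IV with 1.39 RPKM, while chromosome X had 0.36 RPKM and chromosome V 0.22 RPKM. In replicate 2 alone the median on V was 0. The share of rows above 0 was 87.0% on III, 84.9% on I, 76.7% on IV, 75.8% on II, 64.0% on X and 56.7% on V. Chromosomes I and III thus had small RNA over most of their genes, and V and X over fewer.

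Chromosome X and the autosomes differed most at moderate levels. Of protein-coding rows, 306 of 2706 reached 10 RPKM on X (11.3%) against 6071 of 16855 on the autosomes, whereas 2.59% reached 100 RPKM on X against 3.64%. The median was 0.36 RPKM on X and 1.67 RPKM on the autosomes, and over rows above 0 it was 1.47 and 9.14 RPKM. The 100 highest rows held 11 protein-coding rows of X and 71 of the autosomes. Protein-coding rows of X are 12.9% of all rows and those of the autosomes 80.5%. Among the 11 were F02C12.3, F59C12.4, C24H10.4 and his-24. When each chromosome was divided into 3 equal stretches, rows in the 2 outer stretches reached 100 RPKM more often than those in the middle. This share was 4.37% against 2.48% on the autosomes, and 3.39% against 1.21% on X. At 10 RPKM or more the order was the reverse on the autosomes, with 34.4% in the outer stretches and 38.6% in the middle. On X this share was 13.9% against 6.83%. The pooled autosomal medians were 1.56 RPKM in the outer stretches and 1.94 RPKM in the middle. That order of medians held on I, III and V but not on II (1.88 against 1.52 RPKM) or IV (1.51 against 1.19 RPKM). No test was made of these differences, since genes of a chromosome share 1 sample.

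**Figure D5:**
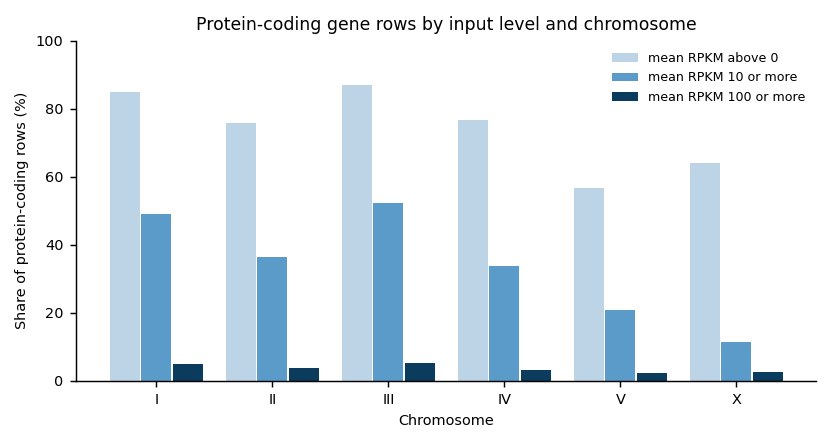
Share of protein-coding gene rows (%) with a mean input level above 0, of 10 RPKM or more and of 100 RPKM or more, by chromosome. Chromosomes I and III have the most rows at 10 RPKM or more (49.0% and 52.3%) and X the fewest (11.3%).

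Some rows overlap annotated noncoding RNA genes. Of 189 matched rows among the 200 highest, 7 (3.704%) had exons that overlap a short RNA gene on either strand, against 710 (3.49%) of the 20333 matched rows. Among the 20 highest rows it was 1 of 19 matched. No test was made of this difference. No row of these 189 overlapped a miRNA gene, and 6 overlapped a piRNA gene. Overlap with an antisense or other noncoding RNA gene was found for 7.41% of them, against 4.43% of matched rows.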

How the data were processed

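Small RNA libraries of the sRIP input were described from a table of RPKM values for 20938 gene rows, calculated and deposited by the authors. Bowtie 1.2.3 was among the tools, per the submitters' processing notes. Build, annotation, strand, read lengths and the handling of multi-mapping reads were not given in the sources used here. The 45 value columns of the second table carry library codes that could not be tied to samples and were not used here. Families were defined by symbol or by lists from general knowledge. The members and lists were chosen with earlier results of these data known. No groups were compared and no test was made between genes or families. A chi-square test over gene rows and a rank correlation were used on the input pair, to compare its libraries only.

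Library totals were deduced as the number that makes RPKM times annotated length a whole number of reads for the most genes. Each row's length was then deduced as the shortest that gives whole reads in all 6 libraries of the table (tolerance 1e-06). All 80624 values above 0 came out whole (100%), which is a weak check, as the length was free. Lengths under 0.6 of every annotated length were raised to a multiple where the 6 libraries held under 20 reads, which applied to 288 rows. That read limit was chosen after seeing the data. Of the 17095 lengths, 4057 equalled an annotated length. RPKM values do not depend on this step, while read numbers and lengths do. The deduction was tested on simulated data.

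Rows were matched by sequence name to the Ensembl annotation of WBcel235, which gave chromosome, position, biotype and current symbol for 20333 rows. The 605 unmatched rows stayed in every count over all rows. The 20202 symbols include 610 with several rows, which were kept. The symbols dsb-2, wago-2, wago-11, hpo-24, drh-2, rde-3, unc-17 and cha-1 were not found by name. The labels do not say that the libraries came from separate cultures, and there is no other input pair to set beside them. Named are the 20 highest rows, the highest 2 rows of each family, all members of lists with 7 genes or fewer, oma-1, the families of 20 rows or more with the 5 highest and 5 lowest shares of rows above 0, and the 3 longest runs of neighbouring high genes. Other genes were named after their values were seen. Python 3.11.15, numpy 2.4.6, pandas 2.3.3, scipy 1.17.1 and matplotlib 3.10.9 were used.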

Additional observations from a re-analysis of the deposited data

How the results depend on the processing

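The share of summed RPKM in the highest 100 rows was 13.2% by reads and 17.8% over protein-coding rows, and 16.9% to 17.6% with either library left out. Rows at 0 in both libraries numbered 5917, and 9378 rows were under 1 RPKM in both. With 1 library left out, 6896 to 7359 rows were at 0, and 813 to 851 rows held 50% of the sum. The median on X was 0.34 to 0.37 RPKM with either library left out and 1.47 RPKM over rows above 0. The autosomal median was 1.67 to 1.72 RPKM and 9.14 RPKM over rows above 0. Of 36 families and lists, 20 had a median above that of all rows and 16 did not. Vitellogenins changed side without replicate 1 and with 1 row per symbol. F-box genes, major sperm proteins and small sperm genes did so over rows above 0. By reads, the share of the sum was over 1.5 times higher for 11 lists and lower for 7, since long models count for more. Low medians are limited by depth. No paired analysis was possible because only 1 group of 2 libraries was described and no groups were compared.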

Other observations

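A sweep over all symbol prefixes with at least 20 rows, which include names outside the families above, gave 72 prefixes. Of these, 27 had a median of 0 and 12 had a median of 10 RPKM or more. The bath prefix was highest at 37.3 RPKM. It was followed by the nuclear pore prefix npp at 33.0 RPKM, the mediator subunits mdt at 29.9 RPKM, and the SET domain genes set at 29.0 RPKM. The rab genes, for GTPases of membrane traffic, had a median of 26.2 RPKM and the ubiquitin-conjugating enzymes ubc one of 24.3 RPKM. At the low end, 4 of 29 fipr rows and 3 of 26 scl rows had a read. Within the chemoreceptor prefixes the share of rows above 0 ran from 20.4% for str to 53.1% for srv. These prefixes were named after their values were seen.

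Neighbouring high rows were counted among protein-coding genes only, in order of their start. In that order, 3 runs of consecutive genes that all ranked among the 200 highest rows were found, each of 2 genes. They were gpx-8 with F55A3.6 on chromosome I, bath-20 with bath-24 on chromosome II, and F15D4.5 with F15D4.6 on chromosome II. Overlapping genes and pseudogenes are not covered by this count. W09H1.3 lies within W09H1.4 on chromosome II, at ranks 122 and 70, but another gene starts between their starts. The pseudogenes Y48G1BM.8 and Y48G1BM.7 held ranks 34 and 66.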
